A study of Oryza sativa with 24 samples.

Results

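The actin-depolymerising factor (ADF) family of rice was followed through 5 stages of pollen life and 3 sporophytic tissues. Its members were taken from a list of 10 rice genes, ADF-1, ADF2, ADF3, ADF4, ADF5, ADF-6, ADF7, ADF-9, ADF10 and ADF11, by their RefSeq symbol or synonym, and a probe set was kept where the array annotation gave it to a single gene. Of the 10 genes 9 have such a probe set, 1 each, among 17905 genes of this kind on the array. ADF3 has none and was not analysed here. Its gene lies next to that of ADF4 in the RefSeq annotation, and the ADF4 probe set is of the kind whose probes match several transcripts, so that the part of ADF3 in the ADF4 signal was not tested.

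All material came from rice (Oryza sativa ssp. japonica, per the methods cultivar Zhonghua 10), and each of the 8 tissues was measured on 3 Affymetrix Rice Genome Arrays, labelled as biological replicates. Microspores with 1 nucleus (UNMs), pollen of the bicellular stage (BCP) and tricellular pollen that was still immature (TCP) were freed from anthers crushed in mannitol. BCP, which by the labels held grains around pollen mitosis, was further taken from a Percoll gradient. By the study's own counts none of these isolated stages was pure, and BCP was the least so. The part of other stages or cells in their signals was not tested. Mature pollen grains (MPGs) were shaken from flowering panicles, and germinated pollen grains (GPGs) were MPGs kept for about 10 min in liquid germination medium. Not all grains of the GPGs had germinated, by the study's count. The sporophytic tissues were callus induced from seeds on 2,4-D (2 mg/l), roots of young seedlings, and leaf. Pollen came from plants grown outdoors and roots from a growth container, so that growth conditions and tissue cannot be told apart. For leaf the labels give flag leaves at grain filling, 110 to 120 days after germination, whereas the methods give leaves of young seedlings.

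ADF proteins, the plant relatives of cofilin, bind actin monomers and filaments, sever filaments and speed the loss of subunits from their pointed ends. A pollen tube grows at its tip, and it depends on actin cables in the shank and on short, rapidly renewed filaments near the apex. In Arabidopsis the family has members made mainly in pollen and others made mainly in vegetative organs, but the numbers in the gene names do not match between the 2 species.

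The pollen and vegetative forms separated clearly in these arrays (plot of signals by tissue). ADF-1, ADF-6 and ADF-9 were above every sporophytic array in each pollen stage, and had signals of at most 223.2 in callus, leaf and root. ADF4, ADF5 and ADF7 had the opposite pattern, and ADF11 was high in leaf and root only. ADF10 was highest in BCP and also present in callus, and ADF2 gave at least 5053 on each of the 24 arrays. In bulk samples fewer cells of a type and less RNA per cell cannot be told apart.

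**Figure D1:**
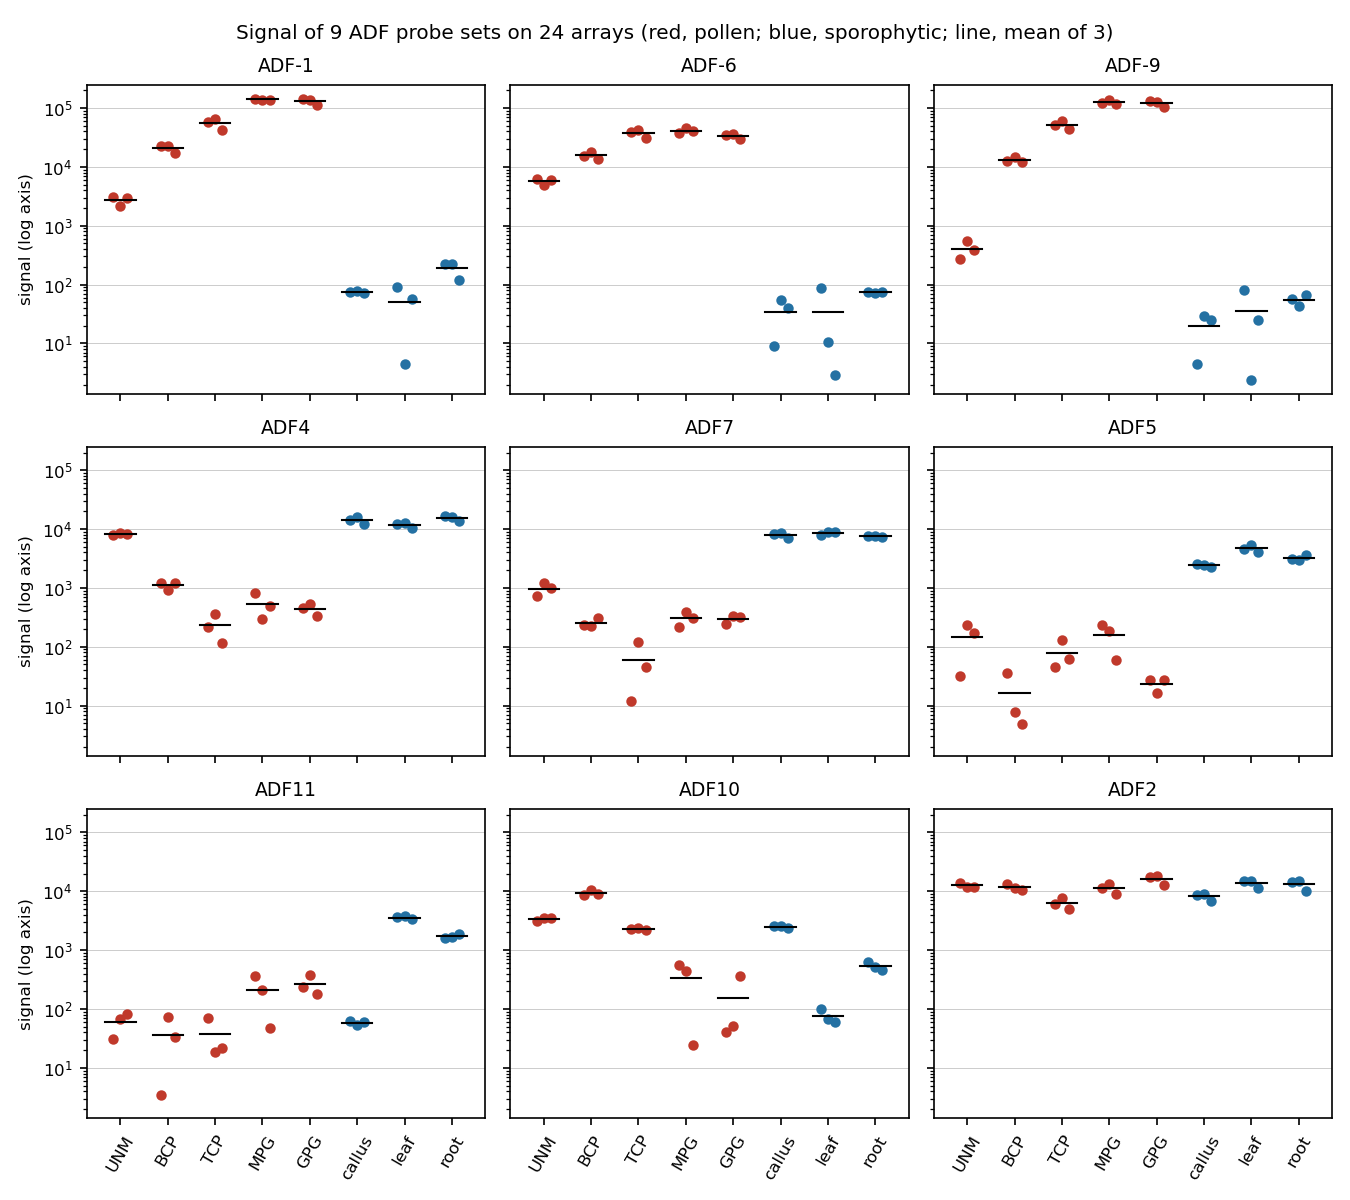
Signal of each ADF probe set (log axis, arrays scaled to a target of 500) on the 24 arrays. Red points are pollen stages, blue points sporophytic tissues, and each line is the mean of 3 arrays. ADF-1, ADF-6 and ADF-9 lie above all sporophytic arrays in every pollen stage, and ADF4, ADF5 and ADF7 below them.

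The MPG and GPG arrays stood apart from the others before any ADF was considered. Although every array had a 2% trimmed mean of 500.1, the median signal was 146.9 to 197.8 on these 6 arrays and 51.3 to 105.2 on the other 18. The geometric mean of 9 hybridisation control probe sets, for bacterial and phage transcripts spiked into the sample, was 8989 to 17347 on the 6 arrays and 1458 to 4228 on the 18. Scaling to these controls moved the median log2 fold change of all probe sets from 0.55 to −0.58 for MPG against TCP, and from 0.39 to −0.70 for pollen against sporophytic tissues. With it, the calls over all probe sets went from 12852 higher and 5641 lower to 585 and 14257 in the first comparison, and from 9888 and 9833 to 2791 and 18792 in the second. These medians and counts are over 47589 tested probe sets as deposited and 43950 after this scaling. Markers set leaf, root and pollen as a class apart from the rest. No marker list was particular to callus or to 1 stage among BCP, TCP, MPGs and GPGs. The summed signal of 10 probe sets of leaf photosynthesis genes was 202723 to 307293 on leaf arrays and at most 4152 elsewhere, that of 5 probe sets of root marker genes 28534 to 28625 on root arrays and at most 1915 elsewhere, and that of the pollen expansins EXPB9 and EXPB10 was 11839 to 308319 in pollen and at most 362.0 elsewhere. Of 7 tapetum and exine genes RTS and C6 stood out in UNMs, with mean signals of 12695 and 2442.

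Signals were compared on the scale of log2(signal + 50) with limma, and a probe set was called at a Benjamini-Hochberg adjusted p under 0.05 over all 47589 tested and a change of at least 2-fold. The offset of 50 understates changes of dim probe sets. All 9 ADF probe sets passed the filter on low signals. Averaged over the 5 pollen stages and set against the mean of the 3 sporophytic tissues, 4 ADFs were called higher in pollen, where 20.8% of all probe sets were, and 4 lower, where 20.7% were. The median log2 fold change of the 9 was −0.04, against 0.39 over all probe sets. The 15 pollen arrays all lay above the 9 sporophytic arrays for 3 members (3.37% of all probe sets) and all lay below them for 3 others (4.30%).

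ADF-1 rose through development. Its signal was 3079, 2163 and 2932 on the 3 UNM arrays, 22276, 23007 and 17093 in BCP, 58505, 65432 and 42212 in TCP, 144755, 136593 and 137837 in MPGs and 144463, 134275 and 113073 in GPGs. In callus it was 73.3, 77.4 and 71.9, in leaf 89.3, 4.4 and 56.8, and in root 223.2, 222.2 and 121.7. Every pollen stage was thus above every sporophytic array, and the ranges of neighbouring stages did not overlap until MPGs and GPGs. The log2 fold change of pollen against sporophytic tissues was 7.99 (SE 0.15, limma adjusted p = 4.31e-21), and it was 8.48 and 6.92 with offsets of 16 and 200.

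ADF-9 had the largest rise of the 3 from UNMs to BCP. It gave 267.7, 548.7 and 389.9 in UNMs, 12719, 14634 and 12215 in BCP, 51387, 59824 and 44674 in TCP, 122837, 137242 and 116368 in MPGs and 130718, 124514 and 104773 in GPGs. On the 9 sporophytic arrays it ran from 2.4 to 79.6 with a median of 29.3, and on none of them did it exceed the median of the array. Its mean was 402.1 ± 140.9 (SD, n = 3) in UNMs and 125482 ± 10686 in MPGs. The log2 fold change of pollen against sporophytic tissues was 8.01 (SE 0.15, adjusted p = 3.1e-21).

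ADF-6 was already high in UNMs, at 6137, 4939 and 5927. It gave 15552, 17900 and 13437 in BCP, 39155, 42286 and 31414 in TCP, 37393, 45810 and 40985 in MPGs and 35395, 36810 and 29947 in GPGs. The TCP range overlapped those of MPGs and GPGs, whereas every MPG array was above every GPG array, a difference that was not called (log2 change −0.28, limma adjusted p = 0.602). The sporophytic arrays held 2.9 to 88.5, and the log2 fold change was 7.87 (SE 0.15, adjusted p = 5.67e-21). Without the MPG and GPG arrays the 3 pollen forms had log2 fold changes of 6.71 (ADF-1), 7.34 (ADF-6) and 6.33 (ADF-9), and with hybridisation control scaling 6.84, 6.89 and 7.08.

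The first step, across pollen mitosis I, raised all 3 pollen forms. From UNMs to BCP the log2 fold change was 4.92 (SE 0.28, limma adjusted p = 4.31e-11) for ADF-9, 2.91 (SE 0.29, adjusted p = 1.58e-07) for ADF-1 and 1.45 (SE 0.29, adjusted p = 0.000816) for ADF-6. These 3 were the ADFs called higher, where 6.11% of all probe sets were, and 3 others were called lower, where 8.19% were. With poly-A control scaling ADF-6 was at 1.55 in this step and not called (SE 0.68, limma adjusted p = 0.237), so that its error grew while its change did not shrink. The geometric mean of the 12 poly-A control probe sets differed widely between replicates. It was 233.6, 483.8 and 761.8 on the BCP arrays and 766.6, 1859 and 12792 on the MPG arrays. From BCP to TCP the same 3 members rose again, by 1.97 (ADF-9), 1.40 (ADF-1) and 1.26 (ADF-6) on the log2 scale, beside 10.2% of all probe sets called higher. Another 3 were called lower in that step, beside 12.9%. At the same array median ADF-6 was below the 2-fold limit there, at 0.88. After quantile normalization ADF-6 (0.89) and ADF-1 (0.73, limma adjusted p = 0.0574) were not called, and with poly-A control scaling none of the 3 was, at 1.51 for ADF-9 (adjusted p = 0.144), 0.94 for ADF-1 (0.474) and 0.80 for ADF-6 (0.554).

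The step from TCP to MPGs depended on how arrays were scaled. As deposited, 5 ADFs were called higher (27.0% of all probe sets) and 1 lower (11.9%). ADF-1 changed by 1.36 (SE 0.29, limma adjusted p = 0.000718) and ADF-9 by 1.28 (SE 0.28, adjusted p = 0.00104), and ADF-6 by 0.14 (95% interval −0.46 to 0.75), not called. With hybridisation control scaling the values were −0.49 for ADF-1, −0.57 for ADF-9 and −1.70 for ADF-6, the last called, and no ADF was called higher. After quantile normalization ADF-1 and ADF-9 were at −0.18 and −0.23. The direction of ADF-1, ADF-9 and ADF-6 in this step thus turned with the scaling, whereas ADF10 fell under all 5 scalings, from −3.03 as deposited to −4.10 with hybridisation controls (plot of scalings).

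**Figure D2:**
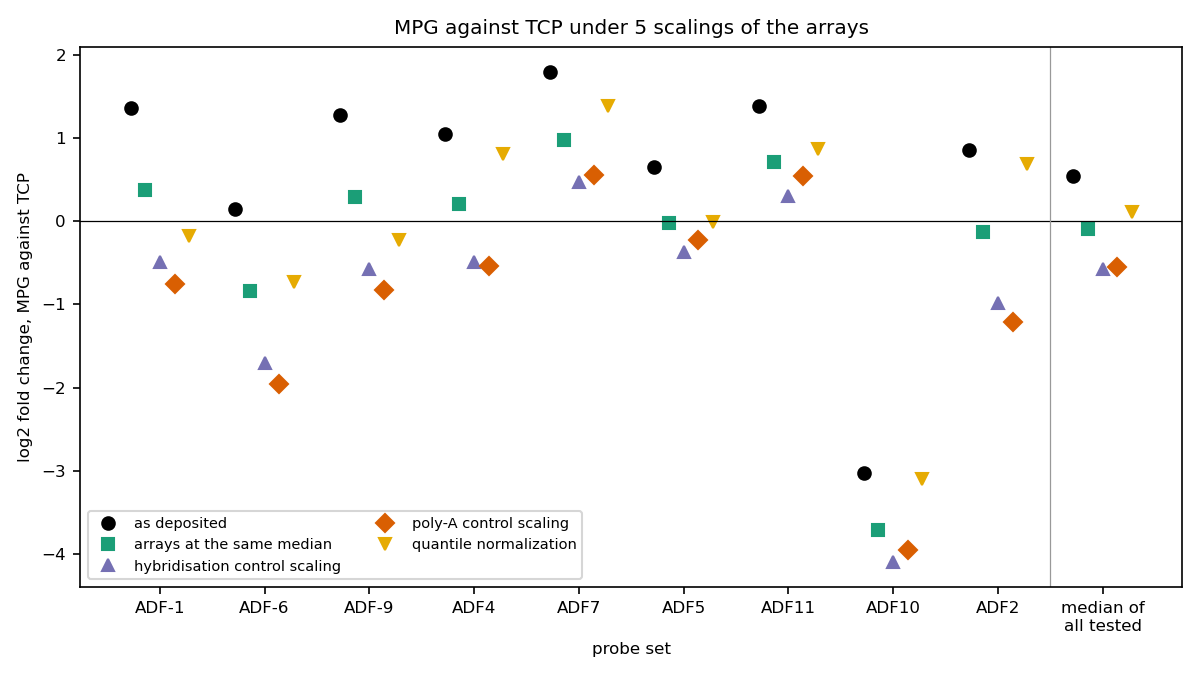
log2 fold change of each ADF in MPG against TCP under 5 scalings of the arrays, with the median of all tested probe sets at the right. Black circles are the deposited values. ADF-1 lies between 1.36 and −0.75, and ADF10 stays below −3 throughout.

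Ratios between members within an array do not depend on a scaling that multiplies all signals of the array by 1 factor, and with the deposited signals the pollen forms changed unequally (plot of ratios to ADF-6). From TCP to MPGs the log2 ratio of ADF-1 to ADF-6 rose by 1.21 and that of ADF-9 to ADF-6 by 1.14, with no overlap between the 3 arrays of each stage. The log2 ratio of ADF-9 to ADF-1 moved by −0.08 in this step, with overlapping arrays, after a rise of 0.57 from BCP to TCP with no overlap. For ADF2 over ADF-6 the ratio fell by 2.18 from BCP to TCP, then rose by 0.71 to MPGs and by 0.79 to GPGs. Quantile normalization does change such ratios. The difference of log2 fold changes from ADF-6 in MPG against TCP was then 0.56 for ADF-1, 0.50 for ADF-9 and 1.42 for ADF2, where it was 1.21, 1.13 and 0.71 as deposited. Each comparison of 3 arrays with 3 that did not overlap had an exact two-sided permutation p = 0.1, the smallest this design allows, and the pairs were chosen after their values had been seen.

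**Figure D3:**
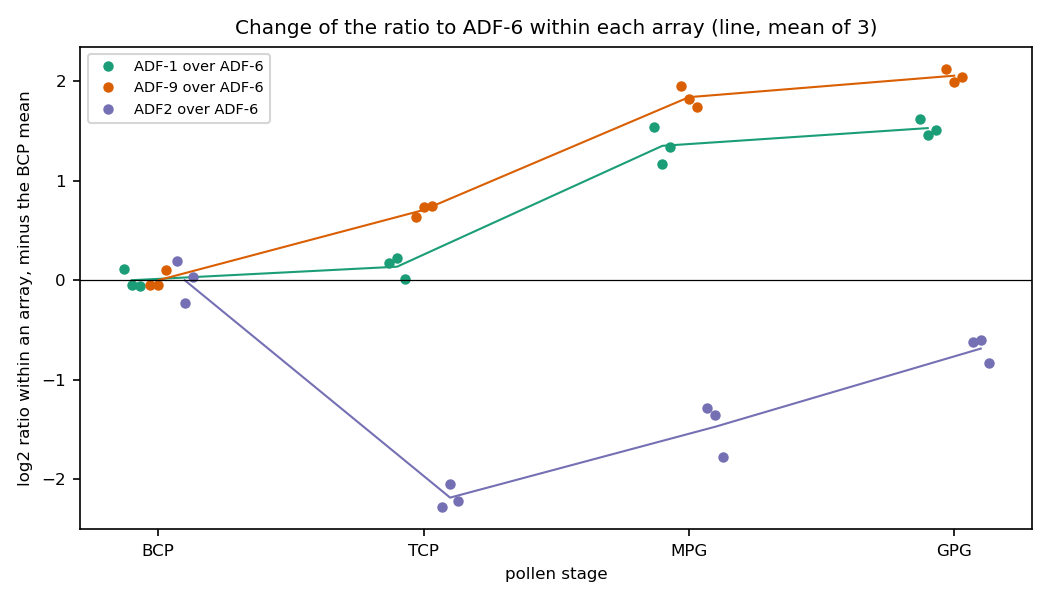
Change of the log2 ratio of ADF-1, ADF-9 and ADF2 to ADF-6 within each array, relative to the mean of the 3 BCP arrays, over 4 pollen stages. Points are arrays and lines are means. The ratios of ADF-1 and ADF-9 are higher in MPGs than in TCP by 1.21 and 1.14, and that of ADF2 has its lowest point in TCP.

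The last step compared MPGs with pollen after about 10 min of germination. From MPGs to GPGs no ADF was called higher, where 3.00% of all probe sets were, and 1 was called lower, where 4.67% were. The 3 pollen forms changed by −0.10 (95% interval −0.71 to 0.50) for ADF-1, −0.28 (−0.88 to 0.32) for ADF-6 and −0.07 (−0.66 to 0.52) for ADF-9. Before adjustment only the interval of ADF2 left out 0 on the side of a rise, narrowly, at 0.50 (95% interval 0.0001 to 1.00, limma adjusted p = 0.205). The called one was ADF5, at 234.7, 182.7 and 60.1 in MPGs and 27.2, 16.6 and 26.9 in GPGs, a log2 change of −1.40 (SE 0.38, limma adjusted p = 0.0237) between dim signals, which was −0.82 (adjusted p = 0.52) with hybridisation control scaling.

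ADF4 and ADF7 were the vegetative forms that UNMs still carried. ADF4 had 14253, 15749 and 12319 in callus, 12251, 12684 and 10615 in leaf and 16375, 16035 and 13480 in root. In pollen it was 7879, 8456 and 8315 in UNMs, 1228, 907.3 and 1199 in BCP, 220.2, 362.0 and 115.5 in TCP, 823.9, 299.8 and 487.0 in MPGs and 464.5, 523.7 and 327.6 in GPGs. All 3 UNM arrays lay below the sporophytic ones and far above BCP, which in turn lay above the later stages. The log2 change was −2.84 (SE 0.31, limma adjusted p = 5.75e-07) from UNMs to BCP and −2.12 (SE 0.31, adjusted p = 1.43e-05) from BCP to TCP, and pollen was below the sporophytic tissues by −3.89 (SE 0.16, adjusted p = 3.85e-15).

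ADF7 was even among the sporophytic tissues, with 8141, 8615 and 7102 in callus, 8076, 8767 and 8967 in leaf and 7571, 7739 and 7254 in root. It had 716.9, 1198 and 1014 in UNMs, 236.9, 222.8 and 303.1 in BCP and 12.2, 121.3 and 45.1 in TCP. In MPGs and GPGs it ran from 219.8 to 388.9. The TCP arrays were thus the lowest of all, and the fall was −1.73 (SE 0.29, adjusted p = 0.000121) to BCP and −1.59 (SE 0.29, adjusted p = 0.000183) to TCP. The rise of ADF7 to MPGs by 1.80 as deposited, and that of ADF4 by 1.05, were not called with hybridisation control scaling, at 0.48 and −0.49. Over the 5 stages ADF7 was at −4.62 (SE 0.15, adjusted p = 5.24e-17) against the sporophytic tissues.

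The summed signal of the 7 tapetum and exine genes moved with ADF4 and ADF7 across the early stages, from 15237 to 16278 in UNMs to 1456 to 1855 in BCP and 413.6 to 433.0 in TCP. The tapetum is the layer of the anther wall that feeds microspores. The sum was carried by RTS, with means of 12695, 1107 and 41.2 in the 3 stages, and C6, with 2442, 156.4 and 90.3. TDR, a transcription factor of the tapetum, was dim at 86.2 and 84.0 in UNMs and BCP, and EAT1, another, had 31.7, 56.1 and 87.1 in the 3 stages. CYP703A3 had 61.3, 150.9 and 46.4, PTC1 123.2, 66.7 and 78.2, and RAFTIN1 176.7, 61.1 and 44.9. After TCP the sum rose again, to 951.8 to 1187 in MPGs and 1566 to 1661 in GPGs. In GPGs PTC1 was at 510.7, RAFTIN1 at 399.4 and CYP703A3 at 357.4, so the list is not particular to the anther wall. The summed signal of 8 probe sets of genes of dividing cells also fell, from 21833 to 23732 in UNMs to 6936 to 7299 in BCP. Means fell for PCNA (7772.5 to 1750.7), MCM2, MCM3, MCM5 and CDKB2;1, whereas CYCB2;1 was at 3393 and 3139. The probe sets of CYCB2;2 were dim, at 13.6 and 71.4 in UNMs. From BCP to TCP the sum fell again, to 3251 to 3461, but MCM3 rose from 253.4 to 522.8 and MCM5 was at 274.3 and 294.0. The part of other anther cells or of cell division in the UNM signals of ADF4 and ADF7 was not tested. In pollen without the UNM arrays ADF4 was at −4.68 and ADF7 at −5.03 against the sporophytic tissues.

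ADF5 was a vegetative form with little signal in any pollen stage. It had 2523, 2448 and 2247 in callus, 4534, 5428 and 4110 in leaf and 3043, 2956 and 3634 in root, so that leaf, root and callus were ordered with no overlap. On the 15 pollen arrays it ran from 4.9 to 236.5 with a median of 45.6. It was above the median of its array on 2 of 3 UNM arrays, 1 TCP array and 2 MPG arrays, and on no BCP or GPG array. The difference of pollen from sporophytic tissues was −4.87 (SE 0.20, limma adjusted p = 2.99e-15). The call of ADF5 as lower in BCP than in UNMs (−1.43, SE 0.38, adjusted p = 0.00985) was lost without UNM replicate 2 (adjusted p = 0.0871) or 3 (0.0592).

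ADF11 was high in leaf and root, and dim in callus. It had 3623, 3729 and 3333 in leaf, 1606, 1690 and 1857 in root and 63.4, 53.4 and 59.6 in callus. In pollen it ran from 3.4 to 374.2, with the higher values in MPGs (365.3, 207.7 and 47.7) and GPGs (240.1, 374.2 and 182.5). Callus was below leaf by −5.05 (SE 0.40, adjusted p = 1.07e-09) and below root by −4.02 (SE 0.40, adjusted p = 7.77e-08). Leaf exceeded root by 1.03 (SE 0.40, adjusted p = 0.0521), not called in the fit over 8 tissues although the 3 leaf arrays lay above the 3 root arrays, and called when only these groups were fitted (adjusted p = 0.000495). Against sporophytic tissues pollen was at −2.68 (SE 0.20, adjusted p = 1.55e-10). The rise of ADF11 from TCP to MPGs, 1.38 as deposited, was 0.31 and not called with hybridisation control scaling.

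ADF10 had a course of its own. Its signal was 3181, 3477 and 3504 in UNMs, 8761, 10633 and 8864 in BCP and 2253, 2340 and 2170 in TCP. In MPGs it was 559.1, 439.7 and 24.7, and in GPGs 41.2, 50.9 and 365.7. The 3 early stages were tight and clearly ordered, with BCP highest, whereas MPG replicate 3 lay below all GPG arrays, and GPG replicate 3 lay far above the other GPG arrays. For this probe set MPG replicate 3 was thus nearer to GPG replicates 1 and 2, and GPG replicate 3 nearer to MPG replicates 1 and 2, than to their own groups. The arrays were kept as labelled, and the comparison of GPGs with MPGs for ADF10 rests on these values. In callus it had 2549, 2551 and 2415, in root 620.1, 512.1 and 467.7, and in leaf at most 100.3 with a median of 66.7.

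The spread of ADF10 in MPGs and GPGs widened its error in every comparison, since 1 spread was fitted over all tissues. The rise from UNMs to BCP was 1.46 (SE 0.56, limma adjusted p = 0.0794), not called, though the arrays did not overlap. It was called without MPG replicate 3 (adjusted p = 0.00646), without MPG replicate 1 (0.0494), without GPG replicate 3 (0.0329) and with only UNMs and BCP fitted (0.00015). The rise was also called at the same array median (1.47, adjusted p = 0.0186) and with hybridisation control scaling (1.17, 0.0464). After quantile normalization (1.53, 0.101) and with poly-A control scaling (1.56, 0.189) it was not. The falls of −2.03 (adjusted p = 0.00789) from BCP to TCP and −3.03 (adjusted p = 0.000168) from TCP to MPGs were called. From MPGs to GPGs ADF10 changed by −0.85 (95% interval −2.01 to 0.31), and without MPG replicate 3 by −1.80 (adjusted p = 0.00768).

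Over all 5 stages ADF10 was called higher in pollen, at 1.16 (SE 0.29, limma adjusted p = 0.00121), but at 0.18 and not called with hybridisation control scaling, and at 0.80 without the UNM arrays. Without the MPG and GPG arrays it was at 2.89. Pollen and sporophytic arrays overlapped, since each callus array exceeded all those of TCP, MPGs and GPGs. Among the sporophytic tissues callus was above leaf by 4.36 (SE 0.56, adjusted p = 1.39e-06) and above root by 2.14 (SE 0.56, adjusted p = 0.00564), and leaf was below root by −2.22 (SE 0.56, adjusted p = 0.00322).

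ADF2 had the smallest range. Its means ran from 6254 ± 1313 (SD, n = 3) in TCP to 16031 ± 3018 in GPGs, a factor of 2.56, and all 7 neighbouring pairs of tissues in the order of means overlapped in their arrays. It gave 14075, 11859 and 11962 in UNMs, 13361, 11489 and 10323 in BCP, 6053, 7656 and 5053 in TCP, 11548, 13435 and 8987 in MPGs and 17239, 18259 and 12596 in GPGs. In callus it was 8735, 9101 and 6723, in leaf 15163, 14689 and 11458, and in root 14246, 15174 and 10078. All 3 TCP arrays lay below all 3 of BCP, with a log2 change of −0.91 (SE 0.24, limma adjusted p = 0.00587) that missed the 2-fold limit as deposited and passed it at the same array median, at −1.30.

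Pollen against sporophytic tissues left ADF2 at −0.04 (95% interval −0.30 to 0.22) as deposited. It stood at −0.72 with arrays at the same median and at −1.48, called lower, with hybridisation control scaling, where the median of all probe sets was −0.70. Callus was below leaf by −0.75 (adjusted p = 0.0176) and below root by −0.67 (adjusted p = 0.0432), both under 2-fold.

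Between the sporophytic tissues most members differed little (plot of fold changes). In leaf against root no ADF was called higher (11.6% of all probe sets), with ADF11 higher at an unadjusted p = 0.0166, and 2 were called lower (15.4%), ADF10 and ADF-1. The second rests on dim signals, at −1.33 (limma adjusted p = 0.00091), and without leaf replicate 2 it was −0.94 and under 2-fold. In callus against leaf 1 was called higher (17.0%) and 1 lower (13.4%), and in callus against root 1 higher (10.5%) and 1 lower (10.9%), each time ADF10 up and ADF11 down.

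**Figure D4:**
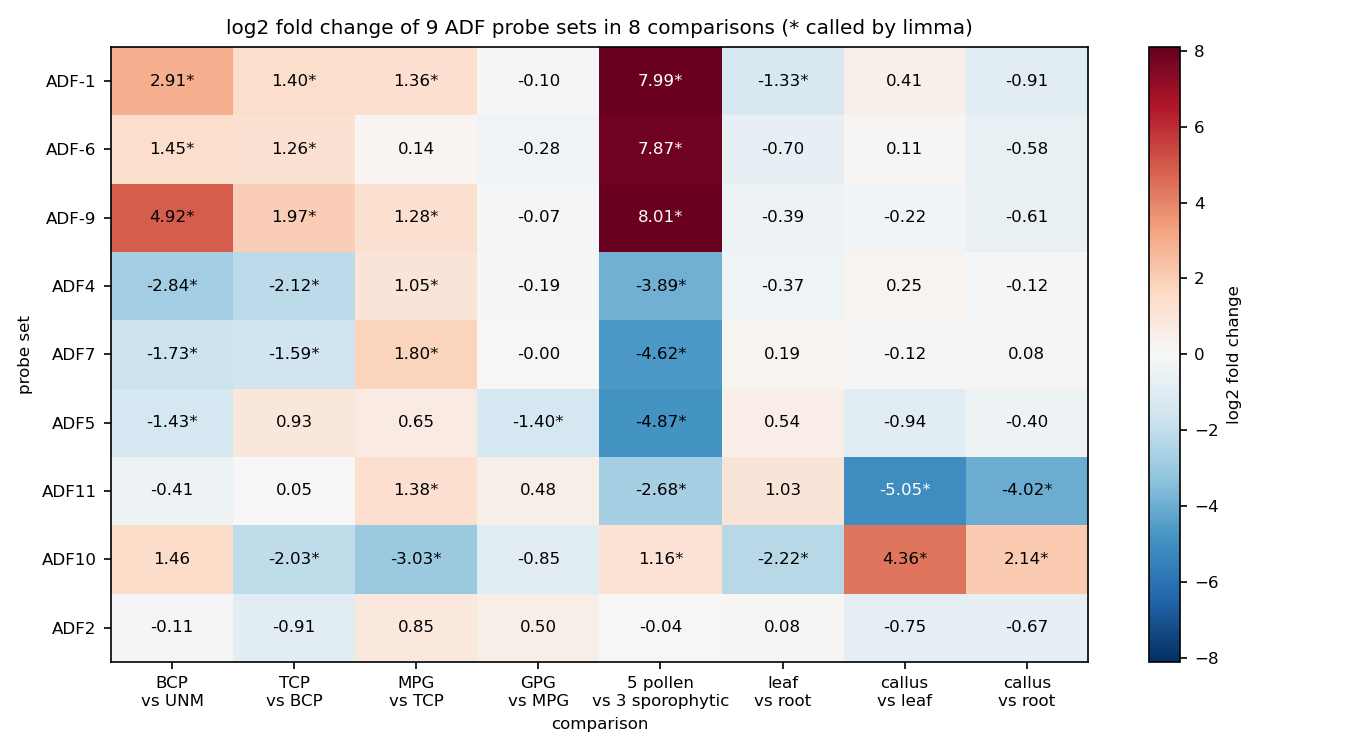
log2 fold change of the 9 ADF probe sets (rows) in 8 comparisons (columns), on the scale of log2(signal + 50), as deposited. Red is higher and blue lower in the tissue named first, and a star marks a call by limma. Calls among sporophytic tissues are those of ADF-1, ADF10 and ADF11.

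The study's rule for pollen-preferential transcripts asks for a ratio of at least 2.0 together with a Z limit. Its ratio was read here as the stage median over the highest sporophytic array. By this reading 4 ADFs passed in at least 1 stage, where 43.9% of all 57258 probe sets did. Stage by stage the rule took 31.0% of all probe sets for MPGs, 30.4% for GPGs, 13.3% for TCP, 7.67% for BCP and 6.96% for UNMs. ADF-1, ADF-6 and ADF-9 passed in all 5 stages, as 1.70% of all probe sets did. The ratios of these 3 have dim sporophytic signals as their denominators, so that their size is no exact fold. ADF10 passed in BCP and in no other stage, as 0.884% of all probe sets did, with a ratio of stage median to highest sporophytic array of 3.47, and was at 1.36 in UNMs. The highest ratio of ADF2 was 1.14, in GPGs. The rule makes no use of replicate error within a stage and is given as a description.

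Across the 8 tissue means the members fell into the same groups. Pearson r of mean log2(signal + 50) was 0.99 between ADF-1 and ADF-9, 0.98 between ADF-1 and ADF-6 and 0.94 between ADF-6 and ADF-9. It was 0.94 between ADF4 and ADF7, 0.93 between ADF5 and ADF7 and 0.82 between ADF4 and ADF5. Between a member of the first and one of the second group it ran from −0.98 to −0.85. ADF11 had its highest r with ADF5, 0.71, and its lowest with ADF10, −0.74. ADF2 reached at most 0.54, with ADF11. These 36 values describe 8 means from the same arrays and carry no test.

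The named genes most like each member were sought among 3061 probe sets with an informative RefSeq name, by the same r over 8 tissue means. For ADF-1 they were CML32, a calmodulin-like gene (r = 0.99), IMCE (0.99) and COI2, of the jasmonate receptor family (0.99). ADF-9 had AldC-alpha, an aldolase gene (0.996), CML32 again (0.99) and OsSPP2, a sucrose-phosphate phosphatase gene (0.99). ADF-6 had SAM2 (0.995), OsPP2C75, a protein phosphatase gene (0.99), and ACA1 (0.99). Among the vegetative forms ADF4 was most like HCT1 (0.99), CYCD6-1, a cyclin gene (0.98), and ACA10 (0.98). ADF5 was most like GINT1 (0.99), JAZ7, a repressor of jasmonate signalling (0.99), and a7 (0.99).

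ADF7 was most like OsCASTOR, an ion channel gene of root symbiosis (0.99), MAPKK1, a kinase gene (0.99), and GAP1 (0.98). ADF11 followed HOX15, a homeobox gene (0.998), Os11N3, a sugar transporter gene (0.99), and OsPht1;1, a phosphate transporter gene (0.98). ADF10 was closest to CUTA1 (0.98), OsRPA14 (0.97) and GAPC2, a glyceraldehyde-3-phosphate dehydrogenase gene (0.97). ADF2 had no close match. Its best were BZIP60, a transcription factor gene (0.86), HSF1, of the heat shock factors (0.85), and OEP24 (0.78). All matches named for the members are the best of 3061 probe sets and carry no test. Some had low mean signals even in the member's highest tissue, such as OsPht1;1 with 228.1 in leaf and CYCD6-1 with 295.3 in root.

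Other genes of the actin cytoskeleton, found by gene name, gave a mixed picture in pollen against sporophytic tissues. They were actins, actin-related proteins, formins, villins and NAP1. No profilin was found by name, and fimbrins, capping proteins and myosins were not searched. Of 36 tested probe sets of 25 genes, 9 were called higher, where 20.8% of all probe sets were, and 14 lower, where 20.7% were, with a median log2 fold change of −0.76 against 0.39 over all probe sets. With hybridisation control scaling 35 were tested, and 7 were called higher (6.35% of all probe sets) and 24 lower (42.8%). The counts of the separate lists are those as deposited. Of 8 actin probe sets 2 were higher, both of ACT1, and 5 lower. The signal of 1 ACT1 probe set had a mean of 160317 ± 1052 (SD, n = 3) in MPGs and 16540 ± 2647 in root, and was at 2.80 (SE 0.12, limma adjusted p = 1.29e-14) in pollen. The 2 probe sets of ACT7 were at −4.34 (SE 0.15) and −3.83 (SE 0.13), and the first had means of 17703 ± 2049 in leaf and 391 ± 151 in TCP.

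Villins, which bundle and sever actin filaments, had 3 of 6 tested probe sets higher and 1 lower. VLN4 was at 6.96 (SE 0.17, limma adjusted p = 2.69e-19) and 5.21 (SE 0.14) with its 2 probe sets, and VLN2 at 3.52 (SE 0.10, adjusted p = 8.25e-18). With the first of these VLN4 had 34155 ± 3916 (SD, n = 3) in TCP and 51.1 ± 46.6 in leaf. VLN2 rose from 9851 in UNMs to 145954 ± 3430 in MPGs and was 2095 ± 89.5 in leaf. Of 13 formin probe sets, from genes whose products start and lengthen filaments, 3 were higher and 5 lower. FH6 was at 3.67 (SE 0.14) and 2.85 (SE 0.15), and FH11 at 2.58 (SE 0.13), with a mean of 60.1 in UNMs and 6674 ± 1565 in MPGs.

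Among actin-related proteins 1 of 8 probe sets was higher and 2 lower. ARP3, of the complex that branches filaments, was at −2.62 (SE 0.17, limma adjusted p = 7.1e-12) and ARP4, of chromatin complexes, at −2.13 (SE 0.16). The probe sets of ARP9 disagreed, at 1.22 (SE 0.20), called, and −0.95 (SE 0.17), not called. NAP1, a subunit of the SCAR/WAVE complex, was at −1.32 (SE 0.12, adjusted p = 3.67e-09). With hybridisation control scaling ACT1, VLN4, VLN2, FH6 and FH11 were above 0, from 1.33 to 6.05 for the probe sets valued here and 0.52 for the other of ACT1, and ARP9 was at 0.55 for its higher probe set.

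**Figure D5:**
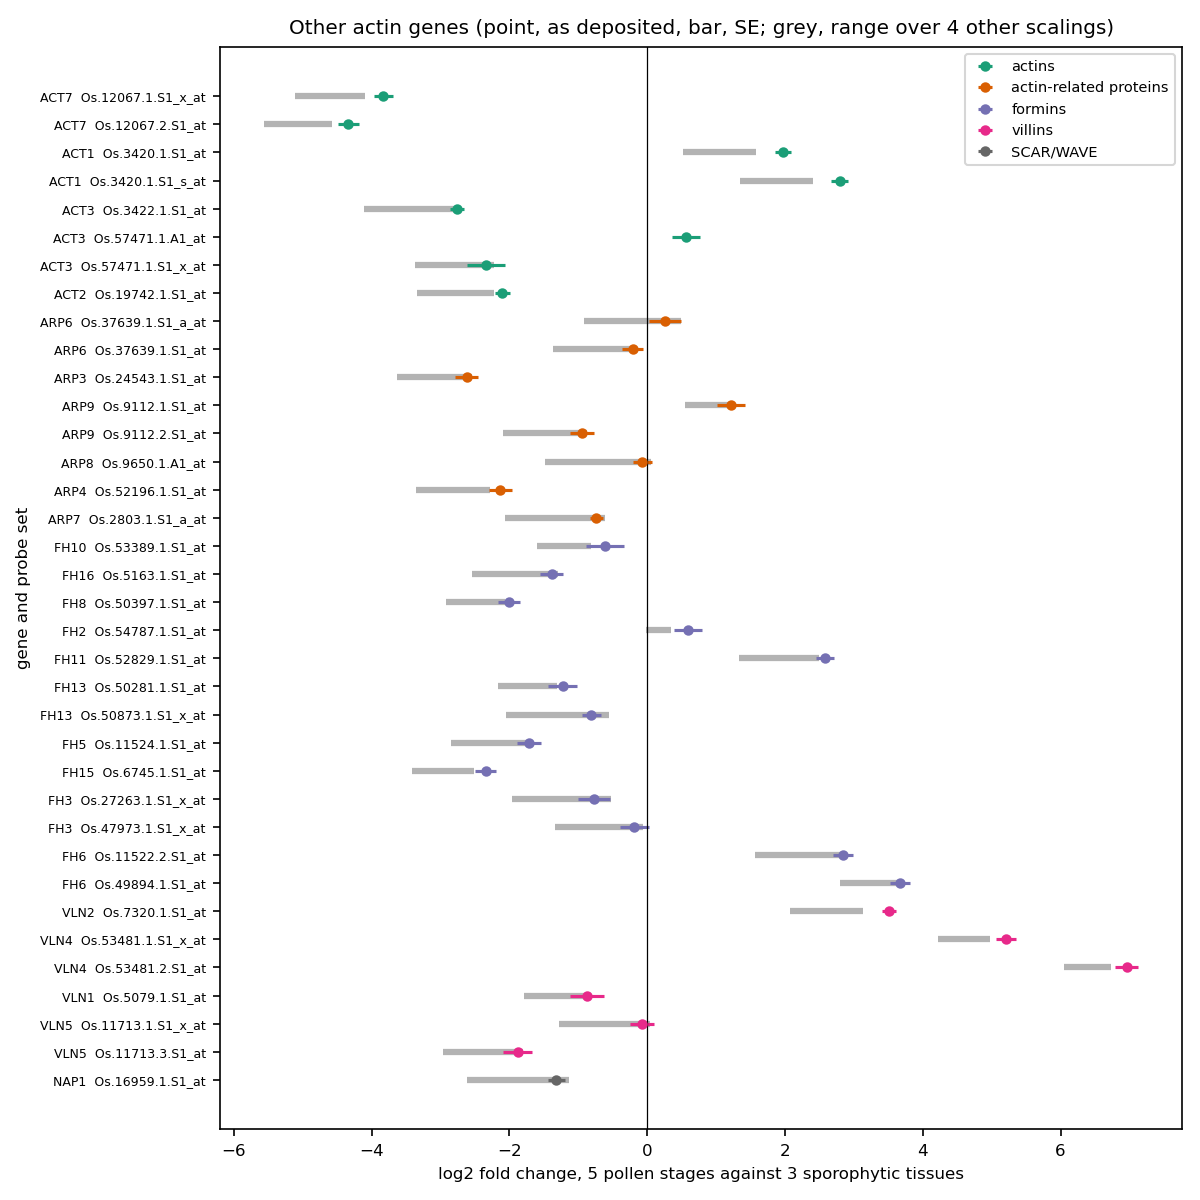
log2 fold change of 36 probe sets of other actin genes in 5 pollen stages against 3 sporophytic tissues, on the scale of log2(signal + 50). Points are deposited values with their SE, coloured by list. Grey bars span the values under those of 4 other scalings in which the probe set was tested. VLN4 lies farthest right, at 6.96 and 5.21, and ACT7 farthest left, at −4.34 and −3.83.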

How the data were processed

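The authors processed scanned arrays with GCOS and MAS5 (versions not given in the sources used here) and deposited linear signal intensities, each array being brought to a target of 500. Of 57381 rows 123 array controls were left out and 57258 probe sets analysed. All 24 columns were mapped by their sample labels. The number of arrays limits the precision, and detection calls were not used here. Gene names come from the array annotation joined to RefSeq symbols, with 22436 probe sets of 1 gene, 95 of several and 34727 of none. Of those of 1 gene, 3188 carry an informative name.

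limma 3.58.1 in R 4.3.3 was fitted to log2(signal + 50), 1 mean per tissue over 24 arrays, for 47589 probe sets with a signal of at least 100 in 3 arrays. p-values were adjusted over all of them by the Benjamini-Hochberg method, for 8 comparisons. The fit was tested on simulated data in which bright probe sets were changed, and only BCP against UNM was read. Changes of dim probe sets and unequal array scales were not covered by it. Ratios, correlations and figures used Python 3.11.15, numpy 2.4.6, pandas 2.3.3, scipy 1.17.1 and matplotlib 3.10.9. Alternatives were the offset, the filter, 4 scalings, a variance trend, a block by replicate number, the groups fitted and each array left out, and 2 more chosen after seeing the data left out whole stages.

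The members, gene lists and tests were chosen with earlier results of these data known. Named were all members, the 3 probe sets per actin list with the largest called change in pollen, and the 3 named genes most like each member. The probe sets of ARP9 that disagree were both given, 1 of them outside this rule. Roles of genes are textbook background.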

Additional observations from a re-analysis of the deposited data

How the results depend on the processing

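The pollen-preferential count was 4 under each alternative run. Pollen against sporophytic tissues had 4 higher and 4 lower without the MPG and GPG arrays, and 3 and 4 without the UNM arrays, both chosen after seeing the data. Scaling mattered most for MPG against TCP. The count of ADFs higher there was 5 as deposited, 2 with an offset of 200, 0 at the same array median, 0 with hybridisation or poly-A control scaling, 1 after quantile normalization and 3 with only those groups fitted, and the count lower was 2 instead of 1 with either control scaling. Directions that turned where the deposited or the alternative value was called were all in that step. They were ADF-1 at −0.49 (hybridisation controls), −0.75 (poly-A controls) and −0.18 (quantile), and ADF-9 at −0.57, −0.83 and −0.23. With hybridisation and poly-A controls ADF4 was at −0.49 and −0.54 and ADF-6 at −1.70 and −1.96. Signs that turned between values not called are not listed, such as ADF2 there, from 0.85 to −0.98 with hybridisation controls. The cause was not tested. For GPG against MPG the 1 lower ADF became 0 with an offset of 200, the 4 scalings and only the groups compared. With poly-A controls BCP against UNM had 2 higher ADFs instead of 3 and 1 lower instead of 3. That comparison had 4 higher, ADF10 being added, with an offset of 200, the same array median, hybridisation controls, a variance trend or only those groups. It had 2 lower instead of 3 with an offset of 200 or only those groups. With poly-A controls TCP against BCP had 0 higher instead of 3 (1 after quantile normalization). Leaf against root then had 1 lower instead of 2, as with an offset of 200. Leaf against root had 1 higher instead of 0 with a filter at 200, quantile normalization, a variance trend or only those groups. Callus against leaf had 2 lower instead of 1 after quantile normalization, and callus against root 2 instead of 1 with that or hybridisation controls. Leaving out single arrays gave 3 to 7 higher for MPG against TCP (3 without MPG replicate 1), 0 to 2 lower for GPG against MPG (0 without MPG replicate 1 or 2 or GPG replicate 2, 2 without MPG replicate 3), 0 to 1 higher and 1 to 3 lower for leaf against root (1 lower without leaf replicate 2), and 1 to 2 lower for callus against root (2 without root replicate 3). The 1 higher ADF of leaf against root, ADF11, appeared without BCP replicate 1 or 2, TCP replicate 1, MPG replicate 1 or 3, or GPG replicate 2 or 3.

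With the replicate block (same-numbered arrays correlated at −0.05 to 0.18, so the numbers were not taken as pairs) MPG against TCP again had 5 higher and 1 lower, and no call changed. Detection calls were not used, so values near the array median are weak evidence of expression.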
